A study of Homo sapiens with 6 samples.

Results

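The genes described here are those of the ubiquitin pathway that removes the CDK inhibitor p27, together with 2 further cullins. They are SKP2, CKS1B, CDKN1B (the gene of p27), CUL1, CUL2, CUL3 and CDC34, which were listed by name with no threshold on a measured value, and they are 7 of the 84 cell cycle genes on a qPCR array. The array was run on HMC-1.2 cells, a neoplastic human mast cell line, and asked how inhibitors of the 2 sphingosine kinases change cell cycle mRNAs. Cells were treated for 24 h with 5 µM SPHK1-I (the SPHK1 inhibitor SKI-178), with 50 µM SPHK2-I (the SPHK2 inhibitor ABC294640) or with vehicle (0.1% DMSO). All 3 groups carry the KIT mutations D816V and V560G, and each group has 2 samples. The inhibitors were given at different doses. No source used here says that the samples of a group came from separate cultures, so the p-values measure the spread between these samples alone.

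SKP2 is the F-box protein with which an SCF ubiquitin ligase recognises its substrates, and CKS1 (from CKS1B) is the cofactor it needs to bind phosphorylated p27. CUL1 is the scaffold of SCF ligases and CDC34 is the ubiquitin-conjugating enzyme that works with them, so that p27 is marked for the proteasome as cells leave G1. p27 itself holds cyclin-CDK2 complexes inactive. CUL2 and CUL3 are scaffolds of other ligase families, such as the one that uses the VHL protein and those that use BTB-domain adaptors. The array measured mRNA only, and neither the proteins nor ubiquitination were measured here.

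For the 3 genes on which the results turn, the 250 bases before the RefSeq start on GRCh38.p14 are shown, because SKP2 and CKS1B were both lower with SPHK1-I while CDKN1B was not called. They lie on the plus strand at chr5:36151861-36152110 for SKP2, chr1:154974431-154974680 for CKS1B and chr12:12717118-12717367 for CDKN1B, and each is written 5′ to 3′ with matches in capitals. The letters searched on both strands were CCAAT (the core of the box bound by NF-Y), TTTGAA (the core of the cell cycle homology region), and TTCCCGC and TTGGCGC, versions of the E2F site. None of these letters overlap in the windows shown.
SKP2: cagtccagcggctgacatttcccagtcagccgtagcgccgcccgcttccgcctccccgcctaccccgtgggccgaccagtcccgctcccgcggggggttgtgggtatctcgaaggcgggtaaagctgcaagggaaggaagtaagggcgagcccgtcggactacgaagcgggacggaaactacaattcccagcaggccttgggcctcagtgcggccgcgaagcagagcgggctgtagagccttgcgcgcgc
CKS1B: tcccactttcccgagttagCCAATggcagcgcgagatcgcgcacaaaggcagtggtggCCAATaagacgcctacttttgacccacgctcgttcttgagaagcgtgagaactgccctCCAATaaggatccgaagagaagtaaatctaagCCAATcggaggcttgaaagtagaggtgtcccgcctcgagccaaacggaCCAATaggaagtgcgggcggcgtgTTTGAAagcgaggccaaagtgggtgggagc
CDKN1B: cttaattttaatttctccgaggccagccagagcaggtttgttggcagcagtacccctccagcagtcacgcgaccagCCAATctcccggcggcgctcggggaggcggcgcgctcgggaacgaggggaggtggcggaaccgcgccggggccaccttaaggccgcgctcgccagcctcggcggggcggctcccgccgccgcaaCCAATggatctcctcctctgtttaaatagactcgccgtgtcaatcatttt
CKS1B had 5 matches of CCAAT and 1 of TTTGAA, CDKN1B had 2 of CCAAT, and SKP2 had none of the 4. Of 35116 such windows in the RefSeq table, CCAAT is in 32%, TTTGAA in 13.3%, TTCCCGC in 5.52% and TTGGCGC in 2.56%. The 5 windows of CUL1 held CCAAT in 2 and TTCCCGC in 1, and the 3 windows of CUL2, the 2 of CUL3 and the 1 of CDC34 held no match. A match describes the letters only, and binding was not measured.

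The threshold cycle (Ct) is the PCR cycle at which a product is detected, so a higher Ct means less mRNA. ΔCt subtracts from it the mean Ct of RPLP0, HPRT1, GAPDH and B2M in the same sample, the authors' reference genes, and log2 changes are differences in −ΔCt. Levels are given as 1000 times 2 to the power of −ΔCt. The mean Ct of the 4 reference genes was 22.5 and 24.3 in the SPHK1-I samples, 22.7 and 22.7 in the SPHK2-I samples and 22.3 and 22.1 in the vehicle samples. SPHK1-I sample 2 thus had later cycles than every other sample, and it held the only Ct values above 30 among the 7 genes (SKP2 at 30.79 and CDC34 at 31.78). The duplicates differed with an SD across the 7 genes of 0.24 with SPHK1-I, 0.094 with SPHK2-I and 0.17 with vehicle on the log2 scale. Over all 84 genes the SD was 0.48 with SPHK1-I, 0.13 with SPHK2-I and 0.17 with vehicle, so the SPHK1-I duplicates lay furthest apart.

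SKP2 was the member that changed with both inhibitors. Its level was 14.3 and 11.3 in the SPHK1-I samples, 12.3 and 10.6 in the SPHK2-I samples and 25.3 and 24.7 in the vehicle samples. All 4 inhibitor samples lay below both vehicle samples, and the samples of the 2 inhibitors overlapped. The means were 12.8 ± 2.10 with SPHK1-I, 11.5 ± 1.22 with SPHK2-I and 25.0 ± 0.459 with vehicle (SD, n = 2 each). SKP2 was 1.97-fold lower with SPHK1-I (log2 change −0.98, standard error 0.18, 95% interval −1.40 to −0.55, limma adjusted p = 0.00729). With SPHK2-I it was 2.18-fold lower (log2 change −1.13, standard error 0.18, 95% interval −1.55 to −0.70, limma adjusted p = 0.00687). By size these were the 10th and the 8th of the 84 changes. The comparisons share the vehicle samples, and without either vehicle sample no member was called with SPHK1-I or with SPHK2-I, nor was any other of the 84 genes (SKP2 log2 changes of −0.96 and −0.99, limma adjusted p = 0.0911 and 0.116, and of −1.11 and −1.15, limma adjusted p = 0.103 and 0.126). The SKP2 call with SPHK2-I was also lost without SPHK2-I sample 1 or 2, at −1.24 and −1.02 (limma adjusted p = 0.0663 and 0.121), where 0 of the 84 genes were called. In these bulk samples, fewer cells of a type and less mRNA per cell cannot be told apart.

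**Figure D1:**
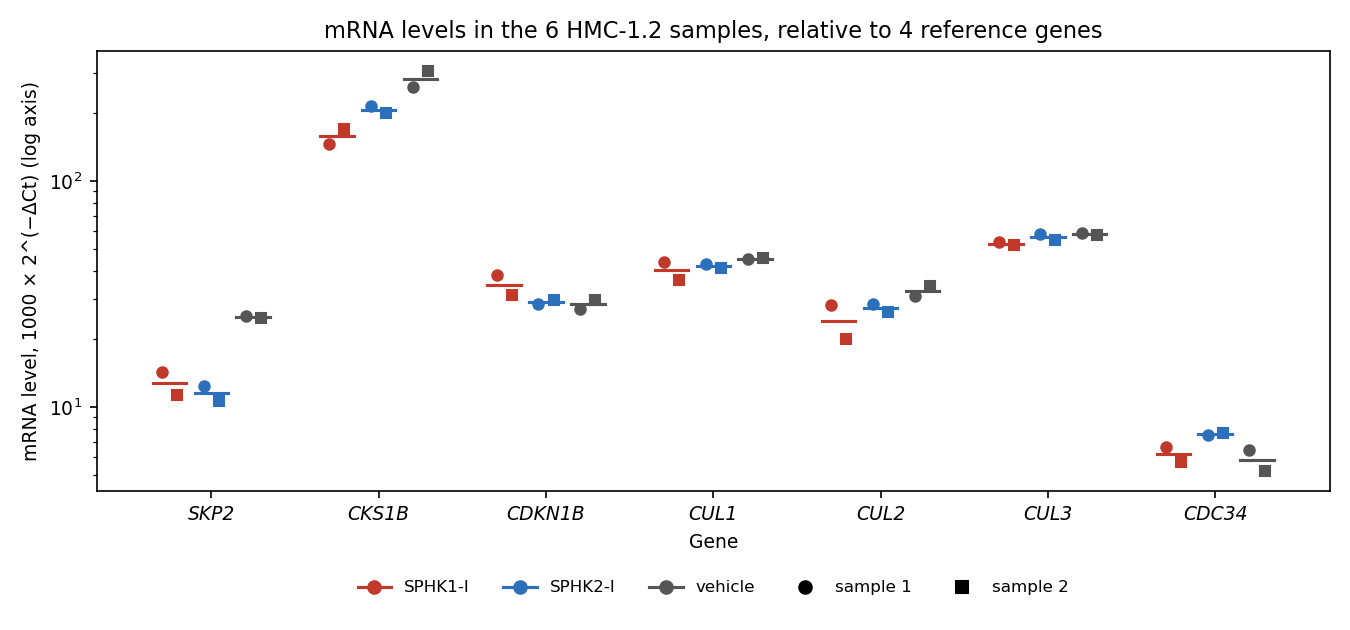
Level of each of the 7 mRNAs in the 6 samples, as 1000 times 2 to the power of −ΔCt on a log axis; points are samples, horizontal lines are means of the 2 samples of a group. SKP2 lies between 10.6 and 14.3 in the inhibitor samples and at 25.3 and 24.7 with vehicle, while the CUL3 samples all lie between 52.0 and 58.8.

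CKS1B, the cofactor, was lower with SPHK1-I. Its level was 145 and 170.5 in the SPHK1-I samples, 214.5 and 199.6 in the SPHK2-I samples and 260.5 and 308 in the vehicle samples. The groups did not overlap, with SPHK1-I lowest and vehicle highest. CKS1B fell 1.80-fold with SPHK1-I (log2 change −0.85, standard error 0.17, 95% interval −1.25 to −0.44, limma adjusted p = 0.0114). The log2 value with SPHK2-I was −0.45 (95% interval −0.86 to −0.047), which did not pass limma's test (adjusted p = 0.0845). The difference between the inhibitors, SPHK2-I minus SPHK1-I, was 0.40 on the log2 scale (95% interval −0.011 to 0.80, limma adjusted p = 0.132). Without vehicle sample 1 or 2 the log2 value with SPHK1-I was −0.97 or −0.73 (limma adjusted p = 0.0911 and 0.134).

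CKS2 is the paralogue of CKS1B and also binds CDKs. Its mean level was 408 ± 69.9 with SPHK1-I, 261 ± 5.06 with SPHK2-I and 366 ± 7.12 with vehicle (SD, n = 2 each). The log2 values were 0.15 with SPHK1-I and −0.49 with SPHK2-I (limma adjusted p = 0.501 and 0.0721). The test of the difference, SPHK2-I minus SPHK1-I, called CKS2 lower (log2 −0.63, standard error 0.17, limma adjusted p = 0.0365). This call was lost in a fit of the inhibitor groups alone, where 0 of the 84 genes were called. The log2 ratio of CKS1B over CKS2 in a sample needs no reference gene, and it was added after the values were seen. It was −1.30 and −1.42 in the SPHK1-I samples, −0.31 and −0.37 in the SPHK2-I samples and −0.47 and −0.27 in the vehicle samples. The SPHK1-I samples lay below the other 4, with a mean 1.99-fold lower than with vehicle. No test was run on this ratio.

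CDKN1B mRNA did not pass the test with either inhibitor. The level of the p27 message was 38.4 and 31.2 in the SPHK1-I samples, 28.5 and 29.8 in the SPHK2-I samples and 27.2 and 29.6 in the vehicle samples. Both SPHK1-I samples lay above both vehicle samples, and the SPHK2-I samples overlapped with vehicle. The log2 values were 0.28 with SPHK1-I (95% interval −0.11 to 0.68, limma adjusted p = 0.230) and 0.039 with SPHK2-I (95% interval −0.36 to 0.44, limma adjusted p = 0.845). SPHK2-I minus SPHK1-I was −0.25 (95% interval −0.64 to 0.15, limma adjusted p = 0.331).

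The ratio of the p27 message to that of its ligase receptor is free of the reference genes. On the log2 scale, CDKN1B over SKP2 was 1.43 and 1.46 in the SPHK1-I samples, 1.21 and 1.49 in the SPHK2-I samples and 0.10 and 0.26 in the vehicle samples. The ratio was higher in all 4 inhibitor samples than in both vehicle samples, by 2.39-fold (SPHK1-I) and 2.24-fold (SPHK2-I) in the mean. CUL1 over SKP2 was likewise apart, 1.74-fold (SPHK1-I) and 2.03-fold (SPHK2-I) higher in the mean. CKS1B over SKP2 was 3.35 and 3.91 in the SPHK1-I samples, 4.12 and 4.23 in the SPHK2-I samples and 3.36 and 3.64 in the vehicle samples, so that it overlapped with vehicle for SPHK1-I and was apart and higher for SPHK2-I. No test was run on these ratios. All of them divide by SKP2, so its fall enters each one. The mean log2 rise of CDKN1B over SKP2 was 1.26 (SPHK1-I) and 1.17 (SPHK2-I). SKP2 itself gave −0.98 and −1.13 in that order, and CDKN1B gave 0.28 and 0.039. The rise thus mostly restates the lower SKP2 and is no separate result about p27. Whether other genes over SKP2 were apart as often was not tested.

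**Figure D2:**
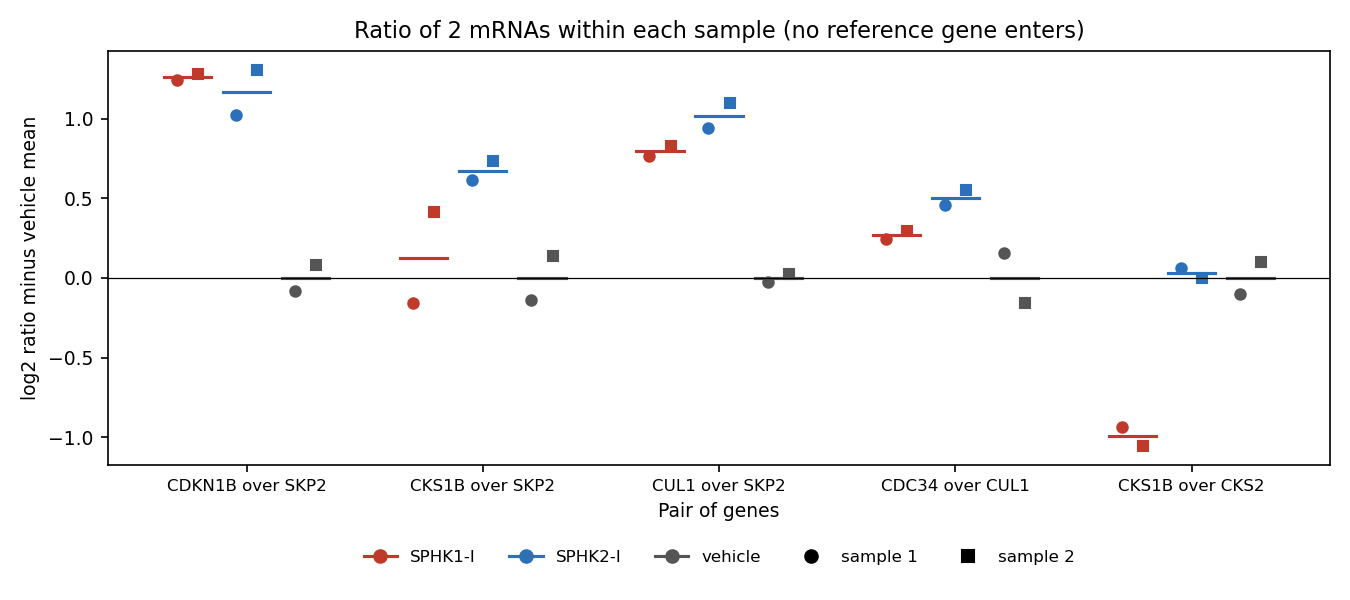
Log2 ratio of 2 mRNAs in the same sample, minus the mean of the vehicle samples; points are samples and lines are group means (n = 2). CDKN1B over SKP2 and CUL1 over SKP2, which share the fall of SKP2, are above vehicle in all 4 inhibitor samples. CKS1B over CKS2 is low in the SPHK1-I samples only.

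The 3 cullins gave no call in any comparison. CUL1, the SCF scaffold, was at 44.0 and 36.4 in the SPHK1-I samples, 42.9 and 41.1 in the SPHK2-I samples and 45.1 and 45.5 in the vehicle samples. Its log2 value was −0.18 with SPHK1-I (95% interval −0.56 to 0.21, limma adjusted p = 0.406) and −0.11 with SPHK2-I (95% interval −0.49 to 0.28, limma adjusted p = 0.636). The inhibitor samples were below both vehicle samples by a margin that did not pass the test. CUL2 was at 28.2 and 19.9 in the SPHK1-I samples, 28.5 and 26.4 in the SPHK2-I samples and 31.0 and 34.1 in the vehicle samples. It had the lowest log2 value of the cullins with SPHK1-I, −0.46 (95% interval −0.93 to 0.018, limma adjusted p = 0.120), and −0.24 with SPHK2-I (limma adjusted p = 0.366). CUL3 had mean levels of 52.9 ± 1.24 with SPHK1-I, 56.6 ± 2.37 with SPHK2-I and 58.4 ± 0.641 with vehicle (SD, n = 2 each). Its log2 values of −0.14 and −0.046 were the smallest in size among the cullins (limma adjusted p = 0.449 and 0.809), and its SPHK2-I samples overlapped with vehicle.

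CDC34, the E2 enzyme, was at 6.67 and 5.70 in the SPHK1-I samples, 7.54 and 7.70 in the SPHK2-I samples and 6.43 and 5.22 in the vehicle samples. The SPHK2-I samples were above the other 4, and the SPHK1-I samples overlapped with vehicle. The log2 value was 0.39 with SPHK2-I (95% interval −0.021 to 0.81, limma adjusted p = 0.135) and 0.090 with SPHK1-I (limma adjusted p = 0.710). Neither passed the test. CDC34 over CUL1, E2 over scaffold, had log2 ratios of −2.72 and −2.67 in the SPHK1-I samples, −2.51 and −2.42 in the SPHK2-I samples and −2.81 and −3.13 in the vehicle samples. All 4 inhibitor samples were above vehicle, SPHK1-I sample 1 by the smallest margin (−2.72 against −2.81). No test was run on this ratio, and whether other pairs were apart as often was not tested.

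Of the 7 genes, 2 were lower and 0 were higher with SPHK1-I, where 31.0% of all 84 genes were called lower and 4.76% higher. With SPHK2-I 1 was lower and 0 were higher, where 23.8% of all genes were called lower and 4.76% higher. The 0 higher calls in the members are in limma, 0 at an unadjusted p under 0.05 and 0 in the methods' t-test after adjustment. Both shares of lower calls are near those of all genes and are no result about the 7 genes as a group. The 7 genes had a median log2 value of −0.18 (SPHK1-I) and −0.11 (SPHK2-I), beside −0.35 and −0.25 over all 84 genes. Between the samples, 6 of the 7 did not overlap with vehicle for SPHK1-I (5 lower and 1 higher) and 5 of the 7 for SPHK2-I (4 lower and 1 higher), against 69.0% and 85.7% of all genes. In the direct comparison of SPHK2-I with SPHK1-I, 0 of the 7 were called, and 0 had an unadjusted p under 0.05 in limma, where 15.5% of all genes were called lower and 15.5% higher. The samples of the 2 inhibitors did not overlap for 4 of the 7 (1 lower and 3 higher), against 58.3% of all genes. SKP2 differed by −0.15 between the inhibitors (95% interval −0.57 to 0.27, limma adjusted p = 0.562).

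Leaving out a SPHK1-I sample changed calls across the whole array. With 1 SPHK1-I sample left, the spread came from the other groups. Without sample 1, 64 of the 84 genes were called with SPHK1-I, 55 with SPHK2-I and 61 between the inhibitors, and without sample 2 the numbers were 45, 55 and 42, so that the added calls of members go with added calls over all genes. SKP2 and CKS1B stayed called lower with SPHK1-I, at −1.14 and −0.73 without sample 1 and at −0.81 and −0.96 without sample 2, the one with late cycles. CDKN1B was called higher with SPHK1-I without sample 2 (0.43), while CUL1 and CUL2 were called lower without sample 1 (−0.32 and −0.71). For SPHK2-I against vehicle, leaving out either SPHK1-I sample gave the same fit, so it counts as 1 check. In that fit CKS1B (−0.45) was called lower and CDC34 (0.39) higher, at log2 values that this step could not change. Between the inhibitors, CKS1B (0.51) and CDKN1B (−0.39) were called without sample 2, and CUL2 (0.46) and CDC34 (0.42) without sample 1.

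**Figure D3:**
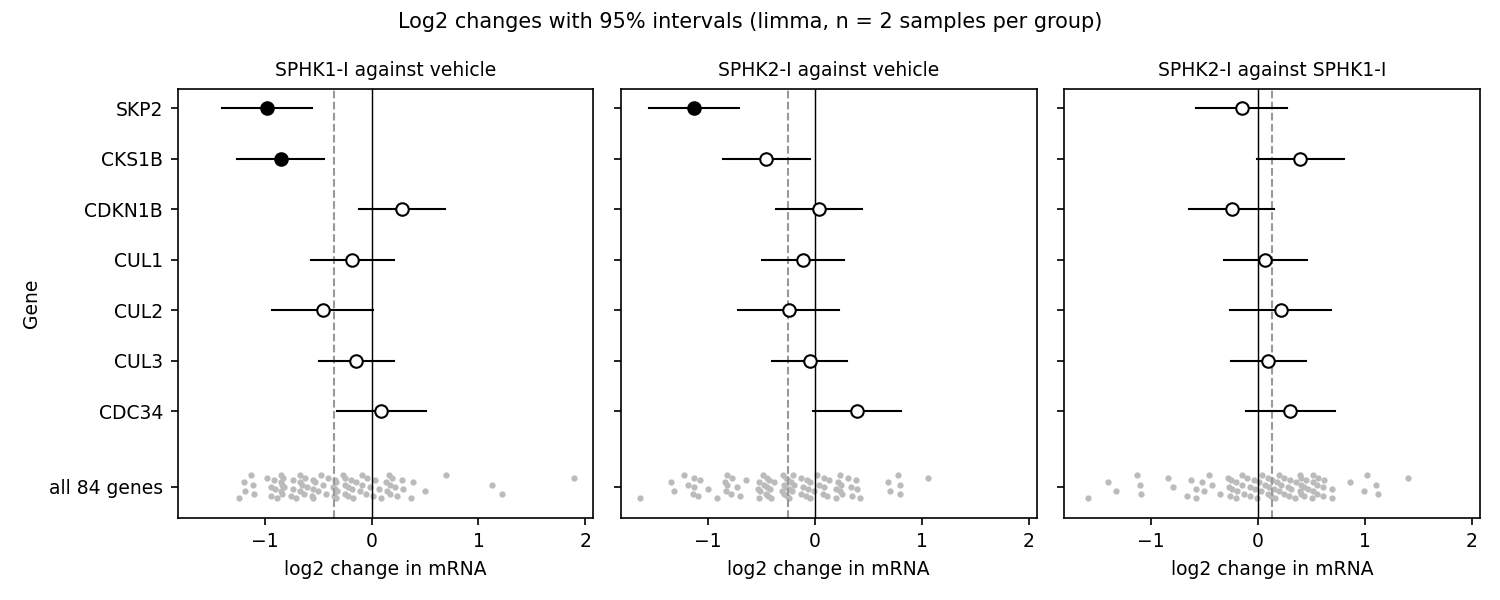
Log2 changes of the 7 genes with 95% intervals from limma (n = 2 samples per group); filled points passed an adjusted p of 0.05, grey dots are all 84 genes and the dashed line is their median. SKP2 is filled in both comparisons with vehicle, CKS1B only for SPHK1-I, and no member in the direct comparison.

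The choice of reference gene moved the members together. The housekeeping genes themselves differed between groups in mean level, given here for SPHK1-I, SPHK2-I and vehicle in that order. These levels are relative to the mean of RPLP0, HPRT1, GAPDH and B2M themselves. They therefore do not show which of these genes changed. B2M was at 1555, 1361 and 1016, and RPLP0 at 5491, 6291 and 5297. HPRT1 was at 53.2, 47.2 and 67.6, GAPDH at 2246, 2474 and 2755, and ACTB at 10206.5, 8399.5 and 12330.3. With each of the 5 housekeeping genes alone, both samples of SPHK1-I and both of SPHK2-I had less SKP2 than both vehicle samples in 5 of 5 cases. The log2 change of SKP2 ranged from −1.58 to −0.63 with SPHK1-I and from −1.55 to −0.58 with SPHK2-I. The SKP2 call with SPHK1-I was lost with GAPDH (limma adjusted p = 0.0530) or RPLP0 alone (limma adjusted p = 0.131). CKS1B with SPHK1-I was below both vehicle samples in 5 of 5 cases as well (−1.46 to −0.50), but it was called with B2M alone and not with the other 4 (limma adjusted p = 0.0530 to 0.180). CKS1B with SPHK2-I was below vehicle for 3 of the 5 and above it for 1, with values of −0.87 to 0.10. CDKN1B had log2 values of −0.32 to 0.63 with SPHK1-I and −0.38 to 0.59 with SPHK2-I, so its direction depended on the reference. CDKN1B was called higher with both inhibitors where HPRT1 or ACTB was the sole reference (0.63 and 0.58 with SPHK1-I, 0.56 and 0.59 with SPHK2-I). The array moved the same way with SPHK1-I. Over the 84 genes, 7 of 14 calls were lower with HPRT1 alone and 15 of 24 with ACTB alone, against 26 of 30 with the 4 reference genes. CDC34 with SPHK2-I had values of −0.027 to 0.94 and was called higher with ACTB alone (0.94, limma adjusted p = 0.0199), HPRT1 alone (0.91, limma adjusted p = 0.00306), the median gene (0.69, limma adjusted p = 0.0334) and all 5 housekeeping genes (0.50, limma adjusted p = 0.0466). The cullins likewise had values on both sides of 0, except CUL2 with SPHK1-I (−1.06 to −0.11). The balance of calls with SPHK2-I turned with the reference for members and array alike. With B2M alone 5 members were lower and 0 higher, where 56 of 57 calls over the 84 genes were lower. With HPRT1 alone 1 member was lower and 3 were higher, where 9 of 34 calls were lower, and with ACTB alone 1 was lower and 2 were higher, where 7 of 29 calls were lower.

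**Figure D4:**
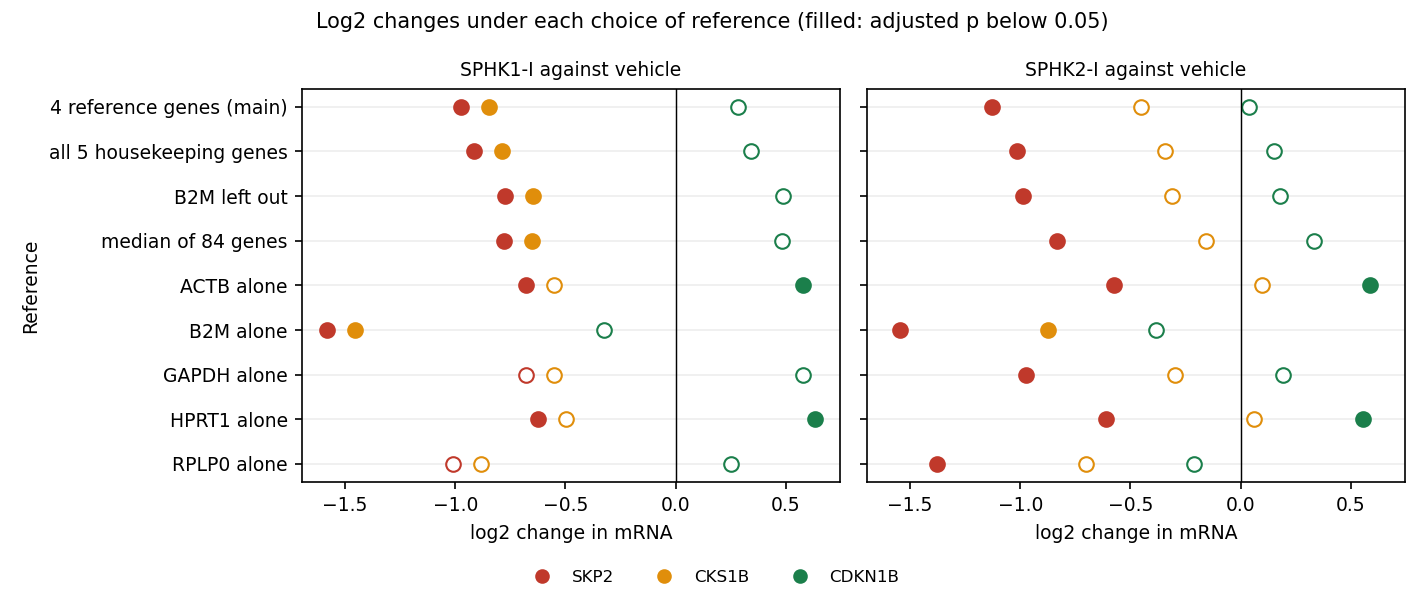
Log2 changes of SKP2, CKS1B and CDKN1B under 9 choices of reference, with filled points for a limma adjusted p below 0.05. SKP2 stays left of 0 in both panels, CDKN1B lies on both sides of it, and B2M alone gives the lowest values.

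The likeness of a gene's pattern was measured as the root mean square difference in −ΔCt from the vehicle mean over the 6 samples, in which the reference genes cancel. For SKP2, the nearest of the other 83 genes were CCNF (0.126), CDK1 (0.151) and MKI67 (0.161), against a median of 0.640. CCNF is itself an F-box protein, CDK1 is the mitotic kinase and MKI67 is the proliferation antigen Ki-67. All 3 were called lower with both inhibitors. Lower values follow from picking them for likeness to SKP2 in these same 6 samples, and are no separate result. The falls with SPHK1-I and SPHK2-I on the log2 scale were 0.89 and 1.14 for CCNF, 1.10 and 1.13 for CDK1, and 0.73 and 1.00 for MKI67. For CDKN1B the nearest were MNAT1 (0.155), CDK7 (0.172) and HUS1 (0.187), against a median of 0.575. MNAT1 and CDK7 are subunits of the CDK-activating kinase and HUS1 is part of the DNA damage checkpoint clamp. None of them was called in the comparisons with vehicle, and small changes again follow from how they were picked.

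Of 4 other genes with products that SCF-SKP2 handles (CDKN1A, RBL2, E2F1 and CCNE1), 1 was lower (CCNE1, by 0.85 on the log2 scale) and 1 was higher with SPHK1-I (CDKN1A, the CDK inhibitor p21, by 1.22). None was called with SPHK2-I, where the smallest p was that of CCNE1 (log2 value −0.44, limma adjusted p = 0.0662). The 4 had median log2 values of −0.45 (SPHK1-I) and −0.023 (SPHK2-I). Of 8 cyclins and kinases that p27 binds, 4 were lower with SPHK1-I (CCND3, CCNE1, CDK2 and CDK4) and 1 was higher (CDK6). With SPHK2-I 2 were lower (CCNA2 and CDK2) and 1 was higher (CDK6). Their median log2 values were −0.57 (SPHK1-I) and −0.15 (SPHK2-I). CDK2, the main kinase that p27 restrains, fell by 0.91 with SPHK1-I and by 0.82 with SPHK2-I on the log2 scale (limma adjusted p = 0.00729 and 0.0106). Among 4 further ubiquitin ligase genes (CCNF, ANAPC2, CDC16 and CDC20), CCNF was lower with SPHK1-I and CCNF and CDC20 were lower with SPHK2-I, with medians of 0.00092 and −0.58. Over all 84 genes the medians were −0.35 (SPHK1-I) and −0.25 (SPHK2-I), with 31.0% and 23.8% of genes called lower, and these lists were not tested against them. CDC20, an activator of the anaphase-promoting complex, fell by 1.19 with SPHK2-I (limma adjusted p = 0.00956) and had a log2 value of 0.22 with SPHK1-I (limma adjusted p = 0.426). CDK6, an early G1 kinase, rose by 1.90 on the log2 scale with SPHK1-I (limma adjusted p = 0.000745) and by 0.80 with SPHK2-I (limma adjusted p = 0.0116). It was detected late, with a mean −ΔCt of −8.21 with SPHK1-I, −9.31 with SPHK2-I and −10.1 with vehicle. These values place its mean Ct above 30 in each group.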

How the data were processed

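The SYBR qPCR array (84 cell cycle genes, 5 housekeeping genes, 7 wells of controls) was run on 6 HMC-1.2 samples, 2 per group. The authors deposited Ct and ΔCt values, both on a log2 scale, which the array maker's web tool averaged per gene and sample; its version and the assays' sequences and efficiencies are not given in the sources used here. The 4 reference genes were identified from their ΔCt, which add up to 0 within 1e-06 per sample. The tables of 2 to the power of −ΔCt, of fold change and of signed fold were not used, the last 2 because they hold the authors' own comparisons.

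Here −ΔCt of all 84 genes was tested with limma 3.58.1 in R 4.3.3 (1 model of the 3 groups, empirical Bayes with 4.33 prior and 3 residual degrees of freedom, no replicate block). p-values were adjusted by Benjamini-Hochberg over the 84 genes, with adjusted p below 0.05 as the call. With 2 samples per group, the smallest p of an exact permutation test is 0.333, so none was used. Same-numbered samples did not deviate together (correlations of −0.26, −0.11 and −0.04 between groups), so numbers were not taken as pairs. The number of samples limits the precision. The code was tested on simulated data. The members and lists were chosen with earlier results of these data known. Named genes are the 7 members, CKS2, the called genes of each list (with none called, the one with the smallest p) and the 3 nearest in pattern to SKP2 and to CDKN1B. Alternatives were other references, a Ct limit of 30, each sample left out, only the groups compared, a replicate block, trend and robust settings of limma and the methods' t-test; leaving out B2M and a crossed block were added after seeing the data. Promoter windows came from RefSeq, and all 7 genes had one.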

Additional observations from a re-analysis of the deposited data

Results flagged for a closer look

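These genes are named because they differed between SPHK2-I and SPHK1-I in the direct limma test, as log2 SPHK2-I minus SPHK1-I, at doses that were not matched. That test took its spread from all 3 groups. In a fit of the inhibitor groups alone, 0 of the 84 genes were called, so none of these calls held there. CKS2, the paralogue of CKS1B, was lower with SPHK2-I (−0.63, adjusted p = 0.0365). CDKN1A differed by −1.13 (adjusted p = 0.0113) and CDK6, detected late with a mean Ct above 30, by −1.10 (adjusted p = 0.00930). CDC20 differed by −1.41 (adjusted p = 0.00930) and CCNA2 by −0.57 (adjusted p = 0.0404). CDK4 was higher with SPHK2-I by 0.62 (adjusted p = 0.0243) and CCND3 by 0.55 (adjusted p = 0.0365). CDK7 is named because its samples moved opposite ways from vehicle, above it with SPHK1-I and below it with SPHK2-I. Both changes were small and did not pass limma's test (log2 0.067 and −0.13, adjusted p = 0.738 and 0.527). The difference was −0.20 and did not pass the test either (adjusted p = 0.369).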

How the results depend on the processing

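SKP2 kept its direction against vehicle in all 19 alternatives for each inhibitor, with log2 changes of −1.58 to −0.58 for SPHK1-I and −1.55 to −0.58 for SPHK2-I. In some alternatives the log2 change could not move, because only the spread was estimated otherwise or a sample outside the comparison was left out. Some were also the same fit under another name, and all of them enter the next counts. Of 399 gene-level values under alternatives, 301 kept direction and call, 18 lost the call, 32 gained one in the same direction and 48 changed sign, 2 of them with a call. Counts of called members went with those over all 84 genes, given after each as "of", and say nothing particular of the members. With SPHK1-I the count (2 of 30) was 6 of 70 with B2M alone, 0 of 8 with GAPDH alone, 0 of 1 with RPLP0 alone, 1 of 15 with Ct limited to 30, 0 of 0 in the methods' t-test (3 of 21 unadjusted) and 0 of 0 to 4 of 64 with one sample left out. With SPHK2-I (1 of 24) it was 2 of 30 with all 5 housekeeping genes, 2 of 29 with the median gene, 3 of 29 with ACTB alone, 5 of 57 with B2M alone, 4 of 34 with HPRT1 alone, 3 of 55 with only the groups compared, 2 of 26 with trend and robust settings, 0 of 1 in the methods' t-test (1 of 41 unadjusted) and 0 of 0 to 3 of 55 with one sample left out. Between the inhibitors (0 of 26) it was 1 of 40 with ACTB alone, 1 of 36 with B2M alone, 1 of 33 with HPRT1 alone and 0 of 0 to 2 of 61 with one sample left out. A group left with 1 sample was assumed to vary like the others. Between the inhibitors the count was 0 of 0 with only the groups compared. SKP2 lost its call with SPHK1-I under GAPDH alone (−0.68, limma adjusted p = 0.0530), RPLP0 alone (−1.01, adjusted p = 0.131) and Ct limited to 30 (−0.58, adjusted p = 0.0944). CKS1B with SPHK1-I lost its call with ACTB (−0.55), GAPDH (−0.55), HPRT1 (−0.50) or RPLP0 (−0.88) alone. Signs changed as follows on the log2 scale. With all 5 housekeeping genes, SPHK2-I gave CUL1 0.0013 and CUL3 0.064. With ACTB alone, SPHK1-I gave CUL1 0.12 and CUL3 0.15, SPHK2-I gave CKS1B 0.10, CUL1 0.44, CUL2 0.31 and CUL3 0.50, and the difference was 0.10 for SKP2 and 0.010 for CDKN1B. With B2M alone, CDKN1B was −0.32 and CDC34 −0.52 with SPHK1-I (called lower, limma adjusted p = 0.0230), CDKN1B −0.38 and CDC34 −0.027 with SPHK2-I, and the SKP2 difference 0.035. With GAPDH alone, the values of CUL1 and CUL3 were 0.12 and 0.15 with SPHK1-I, 0.046 and 0.11 with SPHK2-I, and −0.070 and −0.042 between inhibitors. With HPRT1 alone, SPHK1-I gave CUL1 0.17 and CUL3 0.21, SPHK2-I gave CKS1B 0.063, CUL1 0.41, CUL2 0.27 and CUL3 0.47 (called higher, limma adjusted p = 0.0371), and the SKP2 difference was 0.015. With RPLP0 alone, CDKN1B was −0.21 with SPHK2-I, and the differences of CUL1, CUL2 and CUL3 were −0.14, −0.0024 and −0.12. With the median gene, SPHK1-I gave CUL1 0.019 and CUL3 0.054, and SPHK2-I gave CUL1 0.19, CUL2 0.049 and CUL3 0.25. Without B2M in the reference, SPHK1-I gave CUL1 0.024 and CUL3 0.059, and SPHK2-I gave CUL1 0.032 and CUL3 0.095. With Ct limited to 30 the CDC34 difference was −0.59, since its Ct of 31.78 in SPHK1-I sample 2 was set to the limit. With one sample left out, CDC34 with SPHK1-I was −0.061 to 0.24, CDKN1B with SPHK2-I −0.022 to 0.10, and the differences of SKP2, CUL1 and CUL2 were −0.32 to 0.016, −0.067 to 0.21 and −0.039 to 0.46. With the replicate block, the counts were 2 of 31, 1 of 26 and 0 of 14 and SKP2 had an adjusted p of 0.00612 and 0.00330 in limma. With the crossed replicate block the counts against vehicle were 2 of 33 and 4 of 54. The causes of these shifts were not tested.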
